A study of Mus musculus with 6 samples.

Results

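Sebocytes are the lipid-filling cells of the sebaceous gland. Described here are 33 genes of sebum lipid synthesis and sebocyte function, read in unfractionated keratinocytes and not in sorted sebocytes. They were the measured members of a list of 42 symbols, kept where at least 1 probe set was annotated to exactly that symbol, among 11280 genes in all. The other 9 (Acly, Fads1, Fa2h, Elovl5, Far2, Awat1, Awat2, Dgat2l6 and Aadacl3) had no such probe set and were not analysed here. The membership rule used no measured value. RNA came from unfractionated back-skin keratinocytes of female mice aged 9.5 weeks on a C57BL6/CBA strain background, 3 wild type and 3 carrying K14ΔNLef1, and was read on an exon array. In K14ΔNLef1 mice the keratin 14 promoter, active in basal keratinocytes, drives a Lef1 protein that lacks its N-terminus. Both groups shared sex, age, tissue and strain background. Samples are labelled biological replicates, with no word on pooled animals, and RNA was taken after fluorescence-activated sorting.

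Sebocytes mature by making large amounts of fatty acids, lengthening and desaturating them, and esterifying them to wax, sterols and glycerol. The esters fill droplets until the cell bursts and releases sebum. Lef1 partners with beta-catenin through its N-terminus to switch on Wnt target genes, and the truncated form blocks this. Mice with this transgene are known for follicles that turn into epidermal cysts with sebocytes and for sebaceous tumours. The comparison asks how epidermal gene expression differs in these mice, and here what became of the sebum lipid genes.

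A gene's level on an array averages the log2 intensities of all its probe sets, and a difference is K14ΔNLef1 minus wild type on that log2 scale. "Passed" means an adjusted p of at most 0.05 in limma, with Benjamini-Hochberg adjustment over all 11280 genes. Lef1, the gene of the transgene, read 5.81, 7.02 and 6.26 in wild type and 11.11, 11.13 and 11.24 in K14ΔNLef1. Its groups lay far apart, 4.80 ± 0.29 (SE) or 27.8-fold, with an adjusted p of 4.02e-04, higher on every array labelled with the transgene. Of its 13 probe sets 11 were higher and 2 lower, from -0.36 to 7.54, so this fold averages unequal changes. Of all genes, 37 rose (0.328%) and 94 fell (0.833%). K14ΔNLef1 replicate 1 stood apart: its median intensity was 154.2, against 190.0 to 203.2 on the other arrays, and its median gene lay 0.16 under the wild-type mean. Values without it stand beside the main results that it moved. The keratins of the basal layer were bright on all arrays, with Krt14 at 12.81 to 13.06 and Krt5 at 11.98 to 12.48. The number of arrays, 3 per group, limits the precision of every value. In such mixed samples, fewer cells of a type and less RNA per cell cannot be told apart. Which cells the RNA of each member came from was not tested.

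The sebum lipid genes did not move as a block. None rose, 1 fell (Acsl1), and 32 did not pass, against a background of 0.328% of all genes rising and 0.833% falling. The median difference was -0.01 over the 33 members and -0.05 over all genes, and 16 of 33 members lay within 0.2 of 0. Single members spread from -1.30 (Acsl1) to 1.46 (Soat1), with 14 higher and 19 lower in K14ΔNLef1. Of all 11280 genes, 4830 were higher and 6450 lower, so this split was near that of all genes. At an unadjusted threshold of 0.05, 6 members were higher (background 4.21%) and 3 were lower (background 7.58%). Scd2, Soat1, Cers4, Cidea, Fabp4 and Ldhb were higher without overlap between the groups (6 of 33, background 6.91%). Elovl4, Acsl1, Dgat2 and Plin3 were lower without overlap (4 of 33, background 11.8%). The heat map of all members shows this mixture within every role group.

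**Figure D1:**
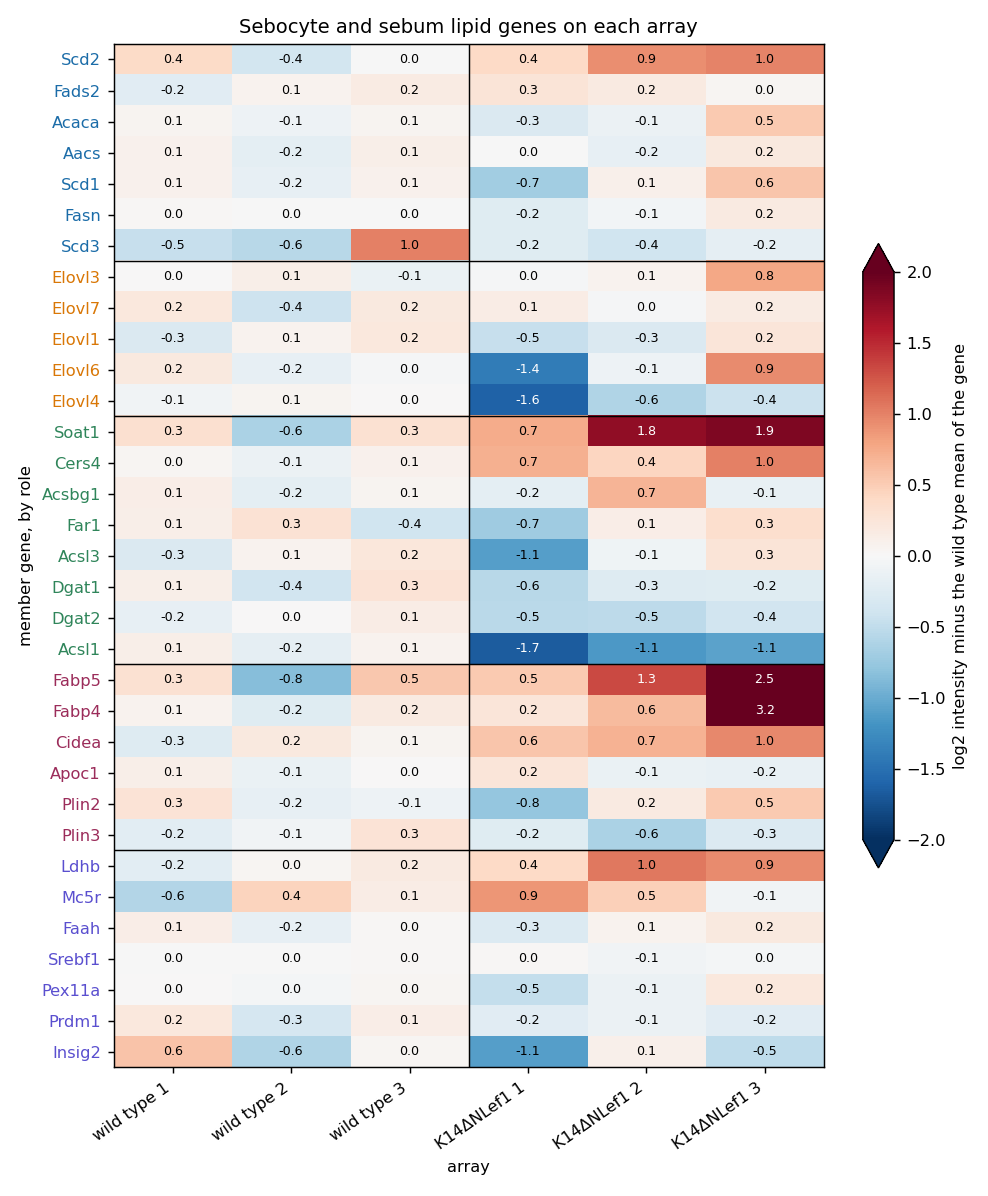
Heat map of the 33 measured members (vertical axis, by role group) on the 6 arrays (horizontal axis). Colour and number give the log2 level minus that gene's wild-type mean. Acsl1 is lower on all 3 K14ΔNLef1 arrays, Soat1 is higher on all 3, and Fabp4 stands out on replicate 3 alone.

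The members also differed among the K14ΔNLef1 arrays. Their median above the wild-type mean was -0.24, -0.02 and 0.20 on replicates 1, 2 and 3, where that of all genes was -0.16, -0.06 and 0.03. The highest level of a member lay on replicate 3 for 18 of 33 members (54.5%), against 22.2% of all genes. After the arrays were shifted to the same median, the count was 13 of 33 (39.4%), against 12.9% of all genes. On replicate 1 the highest level lay for 4 of 33 (12.1%, against 21.9%), and after the shift for 7 of 33 (21.2%, against 40.9%). The large share of all genes on replicate 1 after the shift leaves less for replicate 3. The lowest level lay on replicate 1 for 16 of 33 (48.5%, against 42.3% of all genes), and after the shift for 8 of 33 (24.2%, against 25.4%). It lay on wild-type replicate 2 for 9 of 33 (27.3%, against 12.8%), and after the shift for 11 of 33 (33.3%, against 12.6%). Replicate 3 thus held the highest level for a larger share of the members than of all genes under both scalings, as a description of these arrays without a test.

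The 7 measured genes of fatty acid synthesis and desaturation had a median difference of 0.01 (0.11 without K14ΔNLef1 replicate 1), and none passed. Fasn, the fatty acid synthase, read 8.03, 8.0 and 8.0 in wild type and 7.76, 7.95 and 8.19 in K14ΔNLef1. The wild-type arrays lay close together at 8.01 ± 0.01 (SD, n = 3), and the K14ΔNLef1 arrays lay on both sides of them, at 7.97 ± 0.21. The difference was -0.04 ± 0.18 (SE, adjusted p = 0.953), or 0.06 without K14ΔNLef1 replicate 1, and of its 45 probe sets 21 were higher and 24 lower. Scd1, the stearoyl-CoA desaturase that marks mature sebocytes, read 10.03, 9.80 and 10.03 against 9.26, 10.05 and 10.52. Its K14ΔNLef1 arrays held both the lowest and the highest level of the 6. The difference was -0.01 ± 0.31 (SE, adjusted p = 0.991), and 0.33 without K14ΔNLef1 replicate 1 (adjusted p = 0.512).

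Scd2 is a related desaturase found outside the liver. It read 7.46, 6.71 and 7.08 in wild type and 7.49, 8.02 and 8.07 in K14ΔNLef1. The groups did not overlap, but by only the gap between the nearest arrays, 7.46 and 7.49. The difference was 0.77 ± 0.25 (SE), or 1.71-fold, and did not pass (adjusted p = 0.272). Of its 7 probe sets 6 were higher, 4 of them without overlap between the groups. Over all probe sets with 1 symbol, 5.11% were higher without overlap and 9.46% lower.

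Scd3, a desaturase found mainly in sebaceous glands, was dim, at 4.66, 4.56 and 6.13 against 4.87, 4.72 and 4.94. One wild-type array stood above the other 5, and the difference of -0.27 ± 0.39 (SE) did not pass (adjusted p = 0.838) and was 0.24 without that array, wild-type replicate 3. The Scd genes are close copies, so probe sets may read more than 1 of them and their values are uncertain. Fads2, the delta-6 desaturase, read 5.49, 5.77 and 5.86 against 5.96, 5.89 and 5.75, with overlapping groups and a difference of 0.16 ± 0.18 (SE, adjusted p = 0.78). Acaca, which makes malonyl-CoA, differed by 0.04 ± 0.24 (SE; from -0.20 to 0.20 with single arrays left out), and Aacs, which activates acetoacetate for lipid synthesis, by 0.01 ± 0.19 (SE).

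The 5 measured elongases, which lengthen fatty acids, had a median difference of -0.17, and none passed. Without K14ΔNLef1 replicate 1 the median was 0.07. Elovl4 makes the very long chains of barrier lipids and sebum. It read 7.91, 8.04 and 8.0 in wild type and 6.37, 7.38 and 7.56 in K14ΔNLef1. All wild-type arrays were above all K14ΔNLef1 arrays, and replicate 1 was the lowest. The difference was -0.88 ± 0.30 (SE), a level 1.84-fold lower, and did not pass (adjusted p = 0.299). It was -0.52 without K14ΔNLef1 replicate 1, and 7 of 8 probe sets were lower.

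Elovl3, an elongase prominent in sebocytes, read 5.63, 5.75 and 5.50 in wild type and 5.60, 5.70 and 6.40 in K14ΔNLef1. Only replicate 3 lay above wild type. The difference of 0.27 ± 0.24 (SE, adjusted p = 0.723) was 0.02 without that array. Elovl1, the elongase of saturated very long chains, read 9.04, 9.40 and 9.54 against 8.86, 9.04 and 9.56, and its groups overlapped (-0.17 ± 0.24 SE, adjusted p = 0.831, and -0.02 without K14ΔNLef1 replicate 1). Elovl6, which lengthens palmitate, was chosen for description after its values were seen. It read 8.36, 8.0 and 8.14 against 6.76, 8.06 and 9.10, so the K14ΔNLef1 arrays lay below, within and above the wild-type range. Its difference was -0.19 ± 0.50 (SE, adjusted p = 0.916), from -0.76 to 0.42 with single arrays left out. Elovl7 differed by 0.10 ± 0.22 (SE), although 5 of its 8 probe sets were lower. Its difference was -0.55 when the median of its probe sets was taken, and -0.11 without wild-type replicate 2.

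Genes that activate fatty acids and make esters, grouped here with the ceramide synthase Cers4 and the reductase Far1, held the members furthest from 0 in both directions. Of the 8 measured, 1 fell, none rose, and 7 did not pass. At the unadjusted threshold 2 were higher (background 4.21%) and 2 lower (background 7.58%). The median difference was -0.20, and 0.16 without K14ΔNLef1 replicate 1.

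Acsl1, the long-chain acyl-CoA synthetase that readies fatty acids for esterification or oxidation, was the only member to pass. It read 10.02, 9.71 and 9.96 in wild type and 8.23, 8.75 and 8.82 in K14ΔNLef1. Every K14ΔNLef1 array lay below every wild-type array. The mean went from 9.90 ± 0.16 (SD, n = 3) to 8.60 ± 0.32 (SD, n = 3), a difference of -1.30 ± 0.21 (SE), or 2.46-fold lower, with an adjusted p of 0.0325. All 22 of its probe sets were lower, with differences from -2.27 to -0.60, and 19 of them did not overlap between the groups.

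The direction of Acsl1 held with each array left out (-1.41 to -1.11), but its call did not. Without K14ΔNLef1 replicate 1 it passed (-1.11, adjusted p = 0.0221). Leaving out wild-type replicate 1, 2 or 3 gave an adjusted p of 0.159, 0.113 or 0.173. Leaving out K14ΔNLef1 replicate 2 or 3 gave 0.0765 or 0.0595. With the replicate number as a block the adjusted p was 0.0979, and with pairs of adjacent sample numbers as a block 0.0741. The labels do not say whether samples were paired. Among related genes, Acsl3, another acyl-CoA synthetase, differed by -0.31 ± 0.34 (SE, adjusted p = 0.776), and by 0.08 without K14ΔNLef1 replicate 1. Acsbg1, a synthetase of very long chains, differed by 0.11 ± 0.26 (SE), and by -0.17 without K14ΔNLef1 replicate 2.

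Soat1, which joins cholesterol to fatty acids, had the largest positive difference of the members. It read 6.17, 5.22 and 6.15 in wild type and 6.60, 7.62 and 7.71 in K14ΔNLef1. All K14ΔNLef1 arrays were above all wild-type arrays, and replicate 1 was the nearest to them. The difference was 1.46 ± 0.37 (SE), or 2.75-fold, and did not pass (adjusted p = 0.144). All 13 probe sets were higher, by 0.72 to 2.51, and 5 did not overlap between the groups. Soat1 passed without K14ΔNLef1 replicate 1 (1.82, adjusted p = 0.0377), with arrays shifted to the same median (1.57, adjusted p = 0.0278) and with quantile normalization (1.55, adjusted p = 0.0302). It did not pass without any other single array, where the adjusted p reached 0.398.

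Cers4, a ceramide synthase of sebaceous glands and follicles, read 6.60, 6.46 and 6.65 in wild type and 7.28, 7.0 and 7.57 in K14ΔNLef1. The groups did not overlap and all 12 probe sets were higher, but the difference of 0.71 ± 0.20 (SE), or 1.64-fold, did not pass (adjusted p = 0.189). Dgat2 and Dgat1 add the last fatty acid to triglycerides. Dgat2, described after its values were seen, read 6.99, 7.16 and 7.30 against 6.62, 6.63 and 6.76. Its groups did not overlap, with a difference of -0.48 ± 0.17 (SE, adjusted p = 0.314) and 11 of 12 probe sets lower. Dgat1 differed by -0.35 ± 0.22 (SE, adjusted p = 0.603), from -0.55 to -0.22 with single arrays left out. Far1, which reduces fatty acids to the alcohols of waxes and ether lipids, differed by -0.08 ± 0.31 (SE), and by 0.23 without K14ΔNLef1 replicate 1.

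**Figure D2:**
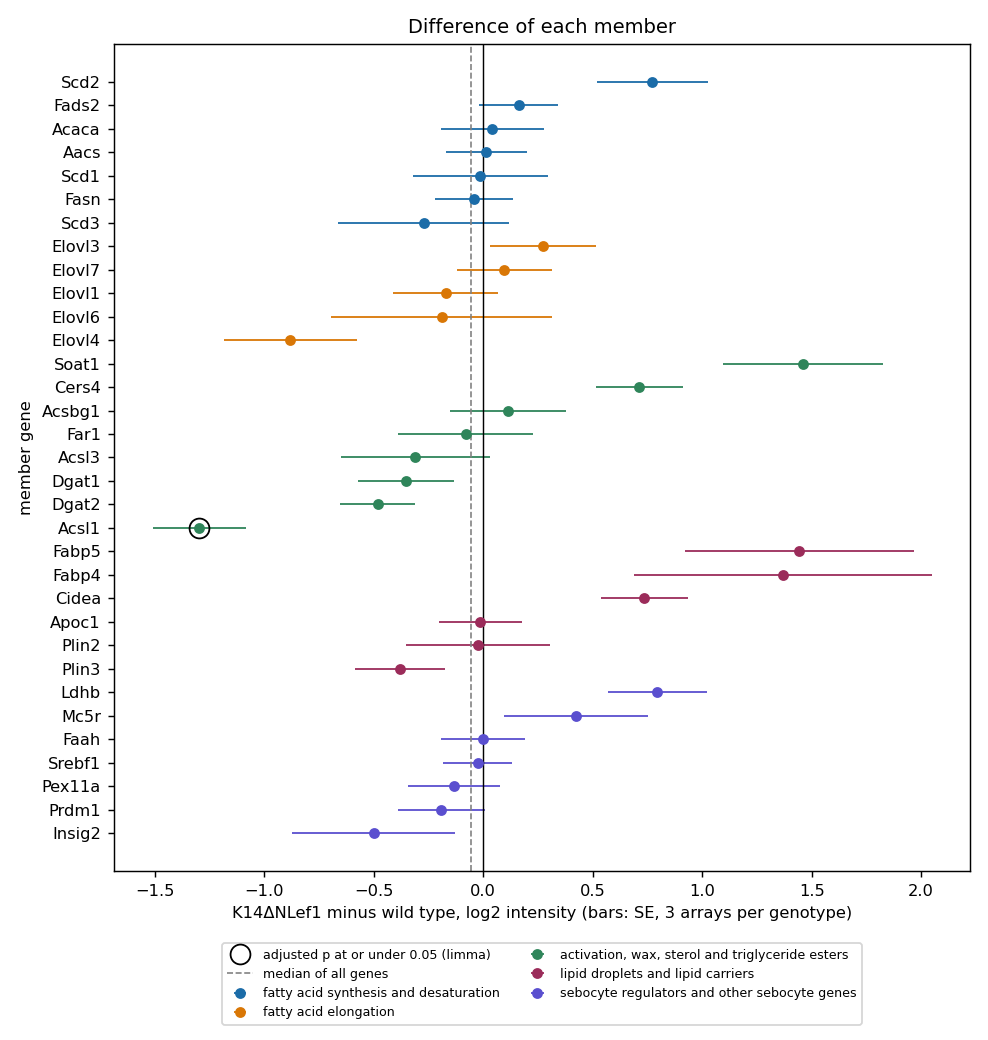
Difference of each member (K14ΔNLef1 minus wild type, log2, horizontal axis) with its standard error, by role group on the vertical axis. Acsl1 at -1.30 is the member that passed, and Soat1 at 1.46 lies furthest on the other side.

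Promoters of Acsl1 and Soat1 are shown because these members had the largest difference in either direction. They are RefSeq sequences on GRCm38.p6, from 250 bases before to 50 bases after a start site. The table of RefSeq promoters held 29 promoters for 23 of the 33 members. Capitals mark matches, on either strand, to a sterol regulatory element (TCACNCCAC, the letters bound by SREBP) or a CCAAT box (CCAAT). The first Acsl1 window is chr8:46470787-46471086 and the second chr8:46490716-46491015, both on the plus strand, and the Soat1 window is chr1:156474279-156474578 on the minus strand.
Acsl1 first promoter: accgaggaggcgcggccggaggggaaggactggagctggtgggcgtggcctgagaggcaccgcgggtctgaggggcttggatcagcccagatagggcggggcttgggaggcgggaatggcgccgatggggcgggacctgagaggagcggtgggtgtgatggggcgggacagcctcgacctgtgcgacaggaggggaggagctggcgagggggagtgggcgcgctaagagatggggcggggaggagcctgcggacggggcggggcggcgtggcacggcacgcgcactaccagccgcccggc
Acsl1 second promoter: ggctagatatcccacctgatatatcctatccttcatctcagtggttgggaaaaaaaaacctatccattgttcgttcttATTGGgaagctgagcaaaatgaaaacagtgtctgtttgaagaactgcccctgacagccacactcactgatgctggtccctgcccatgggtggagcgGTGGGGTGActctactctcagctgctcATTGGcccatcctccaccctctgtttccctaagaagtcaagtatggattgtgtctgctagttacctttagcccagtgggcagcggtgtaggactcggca
Soat1 promoter: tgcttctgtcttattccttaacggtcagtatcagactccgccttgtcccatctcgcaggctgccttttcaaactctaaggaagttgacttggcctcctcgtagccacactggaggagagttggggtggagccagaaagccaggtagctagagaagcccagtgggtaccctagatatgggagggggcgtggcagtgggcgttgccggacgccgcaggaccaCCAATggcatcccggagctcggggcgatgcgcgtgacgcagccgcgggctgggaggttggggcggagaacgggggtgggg
The first Acsl1 window held no match. The second held GTGGGGTGA, the sterol element read on the opposite strand, from base -76, and the CCAAT box in reverse (ATTGG) at -172 and -49. Soat1 held CCAAT at -30. The Acsl1 match was the only sterol element among the 29 promoters, where 1.24% of 32851 promoters of this length held one. CCAAT stood in 15 of 29, against 37.4% of all, and the E-box CACGTG in 2 of 29 (Elovl4 and Plin2), against 7.15% of all. The TCF/LEF letters ATCAAAG stood in none of the 29 and in 3.73% of all. The motifs do not overlap in the windows shown, and a match is a description of letters, not a site in use.

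Genes of lipid droplets and lipid carriers had the highest median difference of the role groups, 0.36 over 6 members, and none passed. At the unadjusted threshold 2 were higher (background 4.21%) and 0 lower (background 7.58%). The median was 0.59 without K14ΔNLef1 replicate 1. Without the members that are dim (Cidea and Fabp4, with means under the 25th percentile of all genes) the median was -0.02. Cidea, a droplet protein that enlarges droplets in sebocytes and brown fat, read 5.34, 5.79 and 5.66 in wild type and 6.15, 6.29 and 6.55 in K14ΔNLef1. The groups did not overlap, and its 3 probe sets were all higher. The difference was 0.74 ± 0.20 (SE), or 1.67-fold, and did not pass (adjusted p = 0.179).

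Fabp5 and Fabp4 carry fatty acids inside the cell, Fabp5 in keratinocytes and sebocytes and Fabp4 in adipocytes, macrophages and endothelium. Fabp5 read 6.52, 5.37 and 6.75 in wild type and 6.74, 7.53 and 8.70 in K14ΔNLef1. The groups met at 6.75 and 6.74, and the difference of 1.44 ± 0.52 (SE), or 2.72-fold, did not pass (adjusted p = 0.324). It was 0.92 without K14ΔNLef1 replicate 3. It rests on 1 probe set of a gene with near-identical copies, so it is uncertain. Fabp4 read 4.10, 3.79 and 4.20 in wild type and 4.28, 4.66 and 7.26 in K14ΔNLef1. Replicate 3 stood far above the other 5 arrays, while replicates 1 and 2 were just above wild type. The difference was 1.37 ± 0.68 (SE, adjusted p = 0.503), and 0.44 without replicate 3.

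Since Fabp4 is also made by fat cells, blood vessels and macrophages, their marker lists are given beside it. The mean level of the 14 measured adipocyte markers was 6.27 to 6.37 in wild type and 6.56, 6.35 and 6.43 in K14ΔNLef1. Adipoq, the fat-cell hormone adiponectin, was 7.48 on K14ΔNLef1 replicate 3, within the 7.31 to 7.66 of wild type. The 11 endothelial markers averaged 6.15 to 6.22 in wild type and 6.31 on that replicate, and the 11 macrophage markers 6.29 to 6.51 and 6.40. On the array where Fabp4 was high, the macrophage mean was within the wild-type range, and the adipocyte and endothelial means were above it by less than 0.1. Between the genotypes, 8 of 14 adipocyte, 9 of 11 endothelial and 7 of 11 macrophage markers had differences above 0. Over all genes, 4830 of 11280 did. The part of these cells in the Fabp4 level was not tested.

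Plin2 and Plin3 coat lipid droplets. Plin2 read 8.40, 7.96 and 8.03 in wild type and 7.35, 8.30 and 8.65 in K14ΔNLef1, on both sides of wild type. Its difference was -0.02 ± 0.33 (SE, adjusted p = 0.987), and 0.35 without K14ΔNLef1 replicate 1 (adjusted p = 0.502). Plin3 was lower without overlap (-0.38 ± 0.21 SE, adjusted p = 0.547, and -0.24 without wild-type replicate 3), with all 8 probe sets lower. Apoc1, an apolipoprotein expressed in sebaceous glands, differed by -0.01 ± 0.19 (SE) on 1 probe set.

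**Figure D3:**
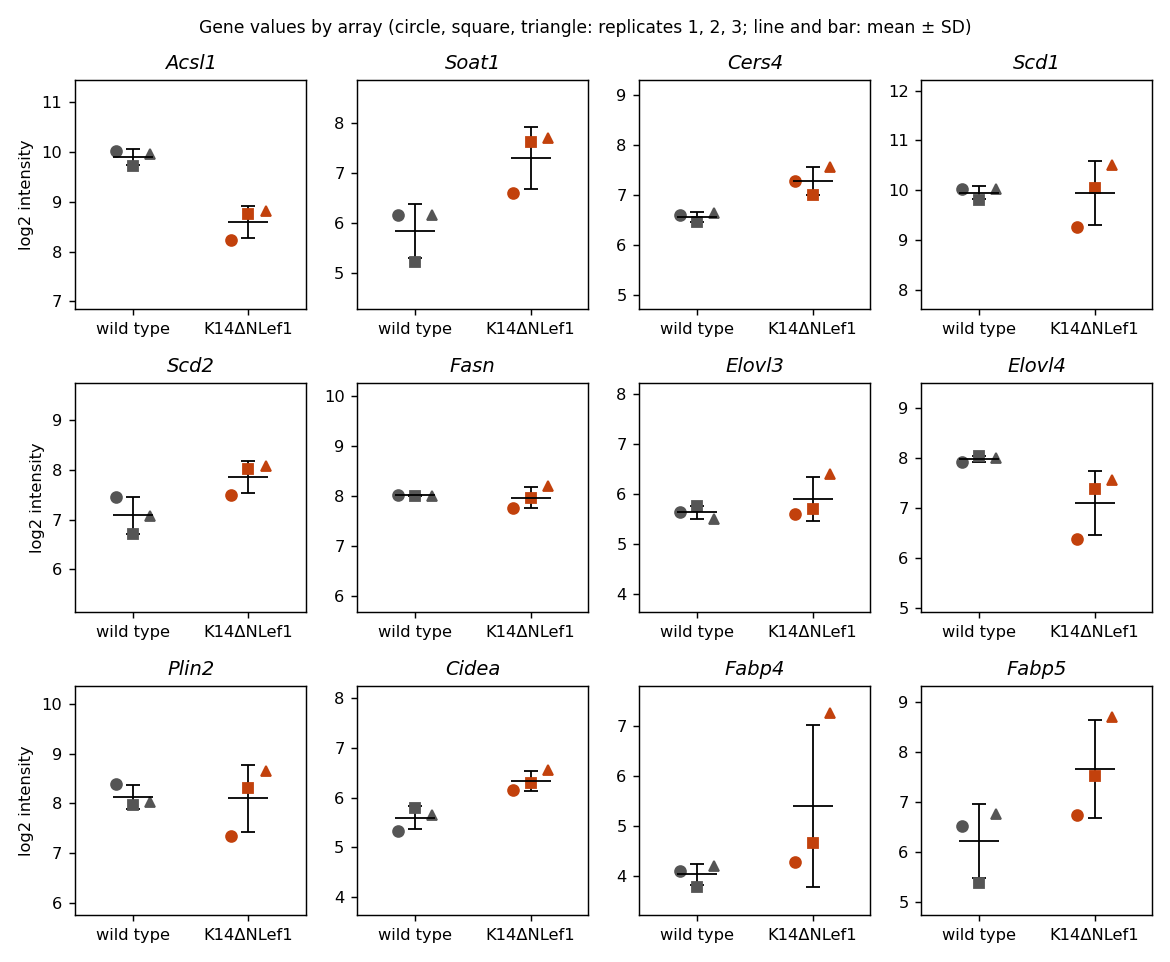
Log2 level on each array (points) of the 12 members, with mean and SD, wild type and K14ΔNLef1 side by side and each panel spanning the same range. Acsl1 and Elovl4 are lower and Soat1, Cers4, Scd2, Cidea and Fabp4 higher in K14ΔNLef1 without overlap, while Scd1, Plin2 and Fasn lie on both sides of wild type.

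The 7 regulators and other sebocyte genes had a median difference of -0.03 (0.04 without K14ΔNLef1 replicate 1), and none passed. At the unadjusted threshold 1 was higher (background 4.21%) and 0 lower (background 7.58%). Ldhb, the heart-type lactate dehydrogenase subunit, read 8.74, 8.98 and 9.13 in wild type and 9.34, 10.00 and 9.89 in K14ΔNLef1. The groups did not overlap. The difference was 0.79 ± 0.23 (SE), or 1.73-fold, and did not pass (adjusted p = 0.197). It rests on 1 probe set, and it passed without K14ΔNLef1 replicate 1 (adjusted p = 0.0372) and with quantile normalization (adjusted p = 0.0388).

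Mc5r, the melanocortin receptor that drives sebum output, read 6.01, 7.05 and 6.75 in wild type and 7.48, 7.08 and 6.53 in K14ΔNLef1. The groups overlapped, and the difference was 0.42 ± 0.33 (SE, adjusted p = 0.68). It was 0.13 without wild-type replicate 1, 0.20 without K14ΔNLef1 replicate 1 and 0.67 without K14ΔNLef1 replicate 3. Insig2, which holds back SREBP activation, read 9.45, 8.29 and 8.92 against 7.78, 8.99 and 8.38. Its groups overlapped too, at -0.50 ± 0.37 (SE, adjusted p = 0.669), although all 8 probe sets were lower. The difference was -0.20 without K14ΔNLef1 replicate 1, -0.22 without wild-type replicate 1 and -0.81 without K14ΔNLef1 replicate 2. Srebf1, the SREBP1 gene and a main activator of fatty acid synthesis, was nearly the same on all 6 arrays, 7.71 to 7.75 in wild type and 7.67 to 7.76 in K14ΔNLef1 (-0.03 ± 0.16 SE, adjusted p = 0.968). Prdm1, the repressor Blimp1, differed by -0.19 ± 0.20 (SE), Faah, which breaks down fatty acid amides, by -0.00 ± 0.19 (SE; 0.13 without K14ΔNLef1 replicate 1), and Pex11a, which helps peroxisomes divide, by -0.13 ± 0.21 (SE; 0.04 without K14ΔNLef1 replicate 1).

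The exon array reads most members at several places along the transcript, with 347 probe sets in all and a median of 8 per member. Unequal change along the transcript was tested with limma's diffSplice in the 29 members with at least 3 probe sets. None passed (0 of 29, background 0.754%), and 1, Elovl7, was under the unadjusted threshold of 0.05 (adjusted p = 0.827). Its 8 probe sets ran from -0.66 to 1.48. The plot of probe sets shows Acsl1 and Soat1 on 1 side of 0 throughout, and Fasn and Scd1 on both.

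**Figure D4:**
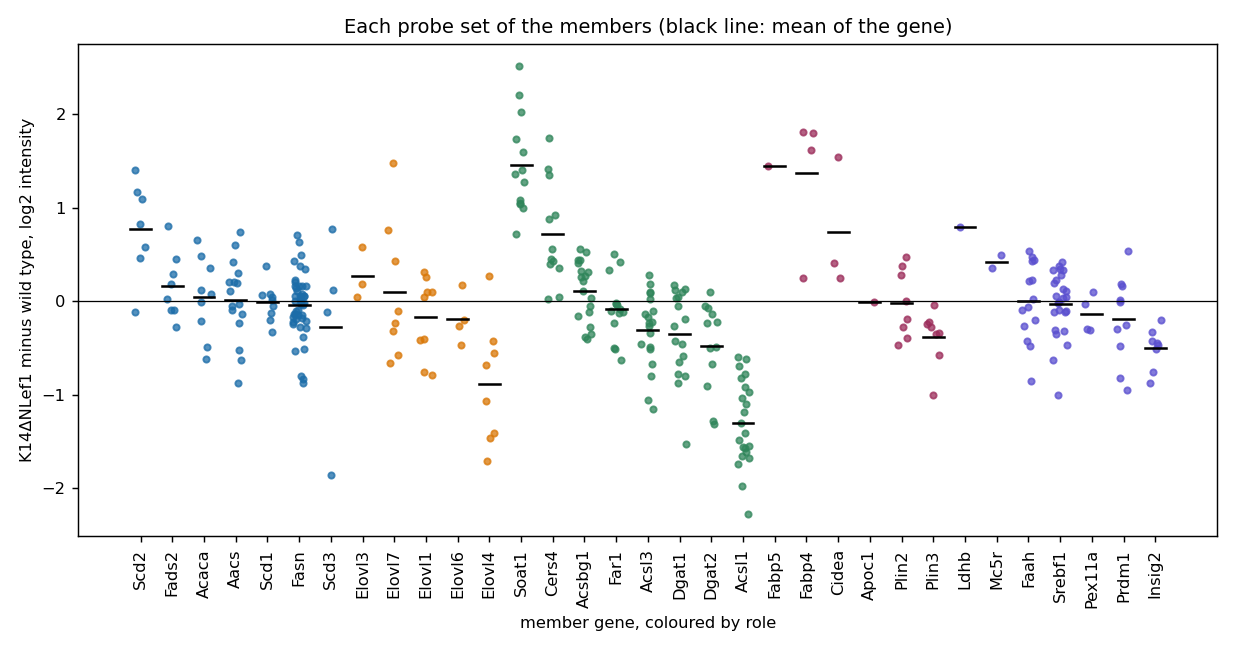
Difference of each probe set (K14ΔNLef1 minus wild type, log2, vertical axis) for each of the 33 members (horizontal axis, coloured by role), with the gene's mean as a line. All 22 probe sets of Acsl1 are below 0, from -2.27 to -0.60, and all 13 of Soat1 above, from 0.72 to 2.51.

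Counts of members that passed moved with the handling of the arrays. Without K14ΔNLef1 replicate 1, 2 members rose (Soat1 and Ldhb; background 1.02%) and 1 fell (Acsl1; 1.1%). When all arrays were set to 1 common median, 1 rose (Soat1; background 0.895%) and 1 fell (Acsl1; 1.18%). With quantile normalization, 2 rose (Soat1 and Ldhb; background 0.789%) and 1 fell (Acsl1; 0.993%). With limma's array weights, 5 rose (Scd2, Soat1, Cidea, Fabp5 and Ldhb; background 5.3%) and 4 fell (Elovl4, Acsl1, Dgat2 and Plin3; 6.19%). The median of all genes was -0.05 as deposited and 0.05 with the same median, so small member differences are read against that shift.

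Further lipid, peroxisome and duct genes were counted in 5 lists, and none of their genes passed in limma, with counts at the unadjusted threshold given for each. Over all genes 4.21% were higher and 7.58% lower at that threshold, and counts near these shares show nothing about a list. Of 26 other synthesis and storage genes, 3 were higher and 1 lower at that threshold, with a median of 0.06 (0.02 without K14ΔNLef1 replicate 1). Mgst1, a glutathione transferase prominent in sebocytes, read 7.37, 7.11 and 7.96 in wild type and 8.64, 9.32 and 9.77 in K14ΔNLef1. The groups did not overlap, and the difference of 1.76 ± 0.33 (SE) did not pass (adjusted p = 0.0517). It passed without K14ΔNLef1 replicate 1 (adjusted p = 0.0206) and with the arrays at the same median (adjusted p = 0.00671).

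Of 17 lipid transcription factors and cofactors, 3 were higher and 2 lower at the unadjusted threshold, with a median of 0.04 (0.003 without K14ΔNLef1 replicate 1). Ppargc1a, a cofactor of mitochondrial and lipid genes, read 7.22, 6.0 and 7.09 against 8.16, 8.28 and 8.81 (1.64 ± 0.34 SE, adjusted p = 0.0743). Pparg, the nuclear receptor needed for sebocyte maturation and chosen here after its values were seen, read 5.24, 5.69 and 5.91 against 6.38, 6.45 and 7.17. Its groups did not overlap, and the difference of 1.05 ± 0.27 (SE) did not pass (adjusted p = 0.157). At the same array median, Ppargc1a (adjusted p = 0.0168) and Pparg (adjusted p = 0.0435) both passed. With quantile normalization Ppargc1a passed (adjusted p = 0.0179) and Pparg did not (adjusted p = 0.0573). Neither passed without K14ΔNLef1 replicate 1, with an adjusted p of 0.08 for Ppargc1a and 0.0964 for Pparg.

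Of the 8 measured sebocyte markers in the list used to check the cell type, 5 were higher and 3 lower, and none passed. Of all 11280 genes, 4830 were higher and 6450 lower. Cidea, Mgst1 and Pparg were higher without overlap, while Scd1, Scd3 and Plin2 had differences under 0. At the unadjusted threshold, of 17 peroxisome genes 0 were higher and 3 lower (median -0.19, and 0.02 without K14ΔNLef1 replicate 1). Cat, the catalase, differed by -0.72 ± 0.25 (SE, adjusted p = 0.305), and by -0.44 without that array. Of 8 duct and junctional zone markers 1 was higher and 0 lower (median -0.19, and -0.13 without that array). That gene was Atp6v1c2, a proton pump subunit, at 0.99 ± 0.31 (SE, adjusted p = 0.238). It passed without K14ΔNLef1 replicate 1 (adjusted p = 0.0282), but not at the same array median (adjusted p = 0.0585) or with quantile normalization (adjusted p = 0.0584). Of 16 epidermal barrier lipid genes 0 were higher and 2 lower (median -0.22, and 0.03 without K14ΔNLef1 replicate 1). Abca12, the lipid transporter of lamellar granules, read 9.59, 9.38 and 8.99 against 6.77, 7.98 and 7.96. All K14ΔNLef1 arrays were lower, by -1.75 ± 0.34 (SE, adjusted p = 0.0625), and it passed without K14ΔNLef1 replicate 1 (adjusted p = 0.0261). It also passed at the same array median (adjusted p = 0.0152) and with quantile normalization (adjusted p = 0.0179).

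Markers of other cells moved beside these results, and their part in them was not tested. Of all 11280 genes, 4830 were higher and 6450 lower, the background for the counts of direction below. The mean of 9 measured Langerhans cell markers was 6.70 to 7.41 in wild type and 7.15, 8.34 and 7.79 in K14ΔNLef1, with 8 of 9 higher (median difference 0.74). The mean of 7 T cell markers was 7.91 to 8.75 and then 8.03, 9.74 and 9.17, with 6 of 7 higher (median 0.77, and 1.22 without K14ΔNLef1 replicate 1). Both lists were higher than all wild-type arrays on K14ΔNLef1 replicates 2 and 3. Soat1, Ldhb, Scd2 and Fabp5 were also higher there than on replicate 1, the array with the lowest median intensity. Acsl1, Elovl4 and Scd1, whose differences were under 0, were higher on replicates 2 and 3 than on replicate 1 too. Cers4, which was higher without overlap, was lowest on replicate 2 (7.28, 7.0 and 7.57). Both marker means were highest on replicate 2, as was Ldhb, while Soat1, Scd2 and Fabp5 were highest on replicate 3. The 10 fibroblast markers averaged 6.25 to 6.30 and then 6.62, 6.47 and 6.59 (median 0.15, and 0.07 without K14ΔNLef1 replicate 1). The 12 keratinocyte markers averaged at most 11.01 in wild type and then 10.34, 10.80 and 10.96, with 10 of 12 lower (median -0.33, and -0.20 without K14ΔNLef1 replicate 1). No gene of these lists, or of the adipocyte, endothelial and macrophage lists, passed in limma on the values as deposited. Cd2 of the T cell list passed without K14ΔNLef1 replicate 1 (1.22, adjusted p = 0.0447). At the same array median, Mfge8 of the Langerhans list (adjusted p = 0.0465) and Fn1 of the fibroblast list (adjusted p = 0.0456) passed, and with quantile normalization Fn1 did (adjusted p = 0.0466). At the unadjusted threshold, where the shares of all genes were 4.21% and 7.58%, 3 Langerhans, 1 T cell, 2 fibroblast, 1 adipocyte and no endothelial or macrophage markers were higher, and 1 fibroblast and 2 keratinocyte markers were lower. The smallest p in the Langerhans list was that of Mfge8 (0.86, adjusted p = 0.132), in the T cell list Cd2 (0.84, adjusted p = 0.387) and in the fibroblast list Fbln1 (1.02, adjusted p = 0.147). In the keratinocyte list it was Dsc3 (-0.66, adjusted p = 0.301), in the adipocyte list Slc2a4 (0.59, adjusted p = 0.219), in the endothelial list Cdh5 (0.31, adjusted p = 0.618) and in the macrophage list Cd14 (-0.54, adjusted p = 0.458).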

How the data were processed

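Unfractionated keratinocytes of 3 wild type and 3 K14ΔNLef1 mice were measured on exon arrays. The deposited table holds linear intensity values per probe set. RMA, Affymetrix Power Tools and mm9 are named per the submitters' processing notes, without a version. After log2, 100% of the deposited values have 5 decimals. Background correction could not be redone from the value table, and filters applied to probe sets are unstated in these sources.

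Of 114330 probe sets, 109751 had 1 symbol and were used, 834 had several and 3745 none listed. Outdated symbols were updated for 1228 genes, and 11245 of 11280 were found in the GRCm38.p6 gene table. Cers4, Plin2 and Plin3 stood under older symbols. A gene's value is its mean log2 over probe sets. Genotypes were compared with limma 3.58.1 in R 4.3.3 (lmFit, eBayes, two-sided, Benjamini-Hochberg over all genes), with no filter on low values, and diffSplice was run on genes with at least 3 probe sets. The fits were tested on simulated data. Summaries and figures used Python 3.11.15, pandas 2.3.3 and matplotlib 3.10.9.

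Values on all arrays are given, in each role group, for the 3 members with the smallest p, for 8 sebocyte markers where measured, and for members that passed in the fit used, without K14ΔNLef1 replicate 1 or at the same array median, and each further list is represented by its gene with the smallest p. Elovl6, Dgat2 and Pparg were added after their values were seen. The members and lists were chosen with earlier results of these data known. Deviations of same-numbered samples from their group means had correlations of -0.16, -0.17 and 0.04. For adjacent sample numbers they were 0.20, -0.07 and -0.01. Such values from 3 arrays per group cannot show whether samples were paired, and the labels do not say. Alternatives were another probe set summary, dim genes left out, other scalings, moderation, array weights, blocks and single arrays left out. P-values measure only the spread between these samples.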

Additional observations from a re-analysis of the deposited data

How the results depend on the processing

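Over all genes, 131 passed as reported, 234 with arrays shifted to the same median, 201 with quantile normalization, 1296 with array weights, 75 with the replicate block and 238 with quantile normalization without K14ΔNLef1 replicate 1. Leaving out single arrays gave 28 to 239, the highest without K14ΔNLef1 replicate 1 and the lowest without wild-type replicate 3. Of the members, 1 passed as reported, 2 at the same median, 3 with quantile normalization, 9 with array weights, 0 with the replicate block, 0 with pairs of adjacent sample numbers, 3 with quantile normalization without K14ΔNLef1 replicate 1, and 0 to 3 with single arrays left out. The replicate block and the adjacent pairs both ended the call of Acsl1, and the labels do not say whether samples were paired. The ester group's median of -0.20 was 0.18 with quantile normalization without K14ΔNLef1 replicate 1, and -0.35 to 0.16 with single arrays left out. The droplet group's 0.36 was -0.018 with dim genes left out, where Cidea and Fabp4 are removed. The regulators' -0.03 was -0.19 when genes took their median probe set, and the cause was not tested. The median over all members ran from -0.15 to 0.11 with single arrays left out. Of 522 differences of single members under the alternatives, 435 kept their direction and side of the threshold, 15 passed in addition, 7 no longer passed and 65 changed sign with no call on either side. The 6 dim members (Scd3, Fads2, Elovl3, Cidea, Fabp4 and Prdm1) lie under the 25th percentile of all genes, so their signal over background limits what their differences show. The count of members highest or lowest on each array was recomputed at the same array median, an alternative chosen after seeing the data.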
